A study of Homo sapiens with 4 samples.

Results

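The 9 genes described here are the metallothioneins MT1A, MT1E, MT1F, MT1G, MT1M, MT1X and MT2A, together with MTF1, the zinc sensor, and SLC30A1, a zinc exporter of the plasma membrane. They were taken by gene symbol from the deposited read counts, and all 9 were among the 23228 genes listed there. By their labels, the counts came from ovarian cancer stem cells (OCSCs) of SKOV3, an established human ovarian cancer cell line. The OCSCs were sorted by flow cytometry for aldehyde dehydrogenase activity (ALDH+) and grown as spheroids in serum-free medium with B27, EGF, bFGF, hydrocortisone and insulin, which both groups shared. The Vehicle group held 2 samples, and the LY500307 group held 2 samples given 5 µM of this estrogen receptor beta (ERβ) agonist, with RNA taken after 24 h in both groups. No source used here says whether the 2 samples of a group were separate cultures, so p-values measure only the spread between these samples, which may be technical.

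Metallothioneins are very small, cysteine-rich proteins that bind zinc and copper ions and buffer their free level in the cytosol. MTF1 senses free zinc through its zinc fingers, moves to the nucleus and binds metal response elements (MREs) in the promoters of metallothionein genes and of SLC30A1, which carries zinc out of the cell. Metallothionein genes are also known to be induced by glucocorticoids, such as the hydrocortisone in this medium, and by oxidative stress. Their human genes, with several pseudogenes, lie side by side on the long arm of chromosome 16. In the annotation of GRCh37, the build of the deposited counts, MT2A lies on chromosome 16 from 56642496 to 56643409 and MT1X from 56716382 to 56718108, with the other 5 metallothioneins of the 9 genes between them. MTF1 lies on chromosome 1 from 38275246 to 38325264 and SLC30A1 on the same chromosome from 211744910 to 211752503, both on the minus strand.

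The sequences shown are the 250 bases before the transcription start of 4 genes, to set the 2 metallothioneins that carried reads in every sample beside their regulator MTF1 and beside SLC30A1. They come from RefSeq on GRCh38.p14, on the strand of each gene, and capitals mark MRE matches, spelled TGCACNC or TGCGCNC on either strand. The windows are chr16:56608334-56608583 (plus strand) for MT2A, chr16:56682220-56682469 (plus strand) for MT1X, chr1:211579162-211579411 (minus strand) for SLC30A1 and chr1:37859593-37859842 (minus strand) for MTF1.
MT2A: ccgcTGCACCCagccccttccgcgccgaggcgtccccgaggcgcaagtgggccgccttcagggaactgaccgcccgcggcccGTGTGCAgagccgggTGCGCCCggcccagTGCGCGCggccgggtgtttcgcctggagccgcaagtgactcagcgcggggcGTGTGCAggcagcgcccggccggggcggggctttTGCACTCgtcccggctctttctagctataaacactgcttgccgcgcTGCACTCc
MT1X: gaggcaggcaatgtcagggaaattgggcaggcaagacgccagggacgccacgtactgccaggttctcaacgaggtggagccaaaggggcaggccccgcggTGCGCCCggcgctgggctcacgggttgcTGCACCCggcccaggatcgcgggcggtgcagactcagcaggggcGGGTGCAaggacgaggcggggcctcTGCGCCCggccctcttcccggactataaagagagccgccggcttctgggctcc
SLC30A1: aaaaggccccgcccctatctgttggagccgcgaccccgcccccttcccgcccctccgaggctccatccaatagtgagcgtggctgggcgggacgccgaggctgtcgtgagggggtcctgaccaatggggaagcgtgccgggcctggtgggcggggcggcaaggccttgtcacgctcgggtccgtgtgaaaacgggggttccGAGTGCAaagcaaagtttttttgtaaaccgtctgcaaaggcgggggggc
MTF1: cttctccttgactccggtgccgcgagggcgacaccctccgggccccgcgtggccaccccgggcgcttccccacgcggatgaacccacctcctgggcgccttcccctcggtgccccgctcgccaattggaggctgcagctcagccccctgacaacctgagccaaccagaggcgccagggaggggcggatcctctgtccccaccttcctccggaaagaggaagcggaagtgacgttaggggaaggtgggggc

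The promoter of MT2A held 7 MRE matches, and at least as many were found in 0.0313% of the 35116 promoters of this length in the table. MT1X held 4 matches, a number reached or passed by 0.37% of promoters. SLC30A1 held 1 match, 49 to 43 bases before the start on the opposite strand, and 24.8% of all promoters held at least 1. The promoter of MTF1 held 0 in this window. Of the metallothioneins that gave no read in any sample, MT1H held 8 MRE matches, MT1B held 3 and MT4 held 3, so that MRE-rich promoters were present among genes with and without reads. A TATA box (TATAAA) was matched in MT2A, MT1X, MT1B and MT4, and in 10.7% of all promoters. GC boxes (GGGCGG), the sites of the SP1 family, numbered 6 in SLC30A1 and 2 each in MT2A and MT1X. MT1B, MT1H and MTF1 held 1 each and MT4 held 0, and 42.6% of all promoters held at least 1. The core of the antioxidant response element (TGACNNNGC) was matched in MT2A, MT1X, MT1B and SLC30A1, and in 10.9% of all promoters. The palindromic estrogen response element (GGTCA and TGACC with 3 bases between them) was matched in 0 of the 7 promoters with an entry and in 0.0399% of all. The glucocorticoid response element (AGAACA and TGTTCT with 3 bases between them) was also matched in 0 of the 7 and in 0.00285% of all. Exact palindromes this rare would be missing from almost any 7 promoters, and imperfect or partial sites were not searched. The counts of 0 therefore do not show that these promoters lack such elements. MT1A, MT1E, MT1F, MT1G and MT1M had no entry in the promoter table. A match is a run of letters and not a measured binding site.

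**Figure D1:**
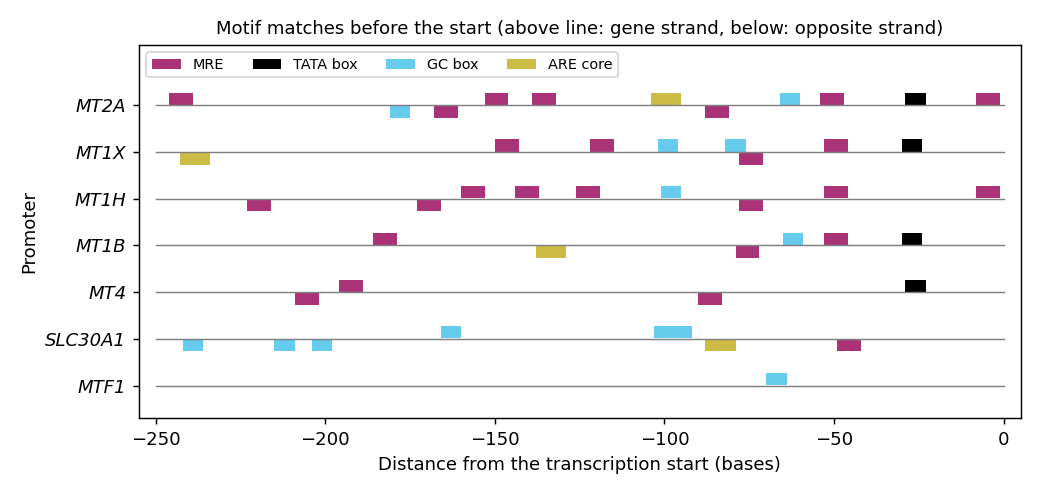
Motif matches in the 250 bases before the transcription start of 7 genes, drawn to scale against the distance from the start in bases, with matches on the gene's strand above each line and on the opposite strand below it. MREs are dense in MT2A (7) and MT1H (8), and SLC30A1 carries 1 MRE and 6 GC boxes.

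The metallothionein genes were close to silent in both groups. MT1E, MT1G and MT1M had 0 reads in all 4 samples, in libraries of 28841701 to 34943882 reads counted on genes. A count of 0 allows up to 3 reads, which is 0.1 CPM (reads scaled to library size with edgeR's TMM factors) in Vehicle replicate 1, 0.106 in Vehicle replicate 2, 0.0864 in LY500307 replicate 1 and 0.0928 in LY500307 replicate 2. These limits, and the intervals below, cover counting error only. MT1A had 4 reads in LY500307 replicate 1 and 0 in the other samples, and MT1F had 1 read in that same sample and 0 elsewhere. The 8 other metallothionein genes and pseudogenes listed in the files, MT1B, MT1H, MT1L, MT1IP, MT1JP, MT1DP, MT3 (the form best known from brain) and MT4 (from stratified epithelium), had 0 reads in all 4 samples. Of 15 metallothionein rows, 11 were therefore without a read.

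MT1X and MT2A, the broadly expressed metallothioneins of human cells, were the only ones of the 15 with reads in every sample. MT1X had 5 and 15 reads with vehicle, against 16 and 6 reads with LY500307. The groups overlapped, and within each group one sample had over 2 times the reads of the other. The level of MT1X was 0.347 ± 0.255 CPM (SD, n = 2) with vehicle and 0.323 ± 0.195 CPM (SD, n = 2) with LY500307. MT1X was the only metallothionein to pass edgeR's filter on low counts, and its log2 fold change, given here and for later genes ± its standard error, was -0.08 ± 0.78 (adjusted p = 0.971 from the quasi-likelihood test of edgeR, adjusted after Benjamini-Hochberg over the 14473 genes tested). The direction of MT1X rested on the samples used: the log2 fold change was 0.95 without Vehicle replicate 2, 0.41 without LY500307 replicate 2, -0.69 without Vehicle replicate 1 and -0.88 without LY500307 replicate 1. MT2A had 7 and 5 reads with vehicle, against 8 and 4 reads with LY500307, and these ranges overlapped as well. Summed over the samples of a group, MT2A had 12 reads in each group, a ratio of LY500307 to Vehicle of 0.871 after scaling for depth, with an exact 95% interval of 0.358 to 2.12. For MT1X the sums were 20 and 22 reads, and the ratio was 0.958 (0.499 to 1.85). These intervals pool the reads of a group and leave out the spread between samples. Differences beyond their bounds could therefore also have gone undetected.

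Added together, the 7 metallothioneins had 12 and 20 reads with vehicle and 29 and 10 reads with LY500307. This was 0.400 and 0.704 CPM in the Vehicle samples and 0.836 and 0.309 CPM in the LY500307 samples. The highest and the lowest of the 4 values were both LY500307 samples. The ratio of the group sums was 1.06 (exact 95% interval 0.648 to 1.75). The exact permutation test over samples gave p = 1.0 (two-sided), where 2 samples against 2 cannot go below 0.333.

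**Figure D2:**
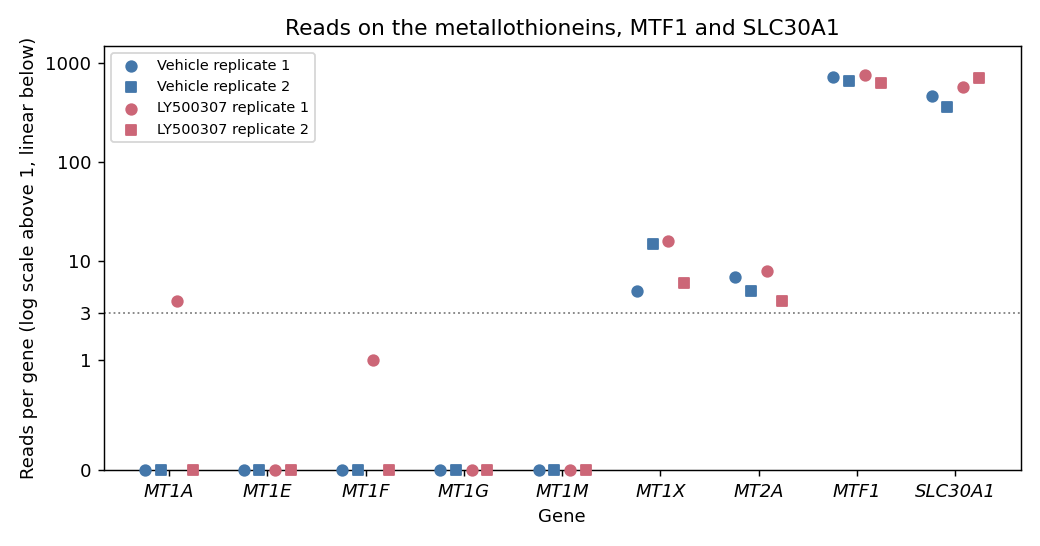
Reads per gene in each of the 4 samples for the 9 genes, on an axis that is logarithmic above 1 read and linear below, with the dotted line at 3 reads, the limit that a count of 0 allows. MT1E, MT1G and MT1M lie at 0 in every sample, MT1X and MT2A between 4 and 16 reads, and MTF1 and SLC30A1 between 363 and 764 reads.

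Metallothionein transcripts resemble each other, and reads that align equally well to several places were not counted on any gene. Such reads made up 32.3% to 33.4% of all tallied alignments in the 4 samples. Each transcript was therefore cut into all its windows of 50 bases, the read length, and each window was looked for elsewhere in GRCh37 and in the transcripts of the other family members. Among the 7 metallothioneins, from 78.7% of windows in MT1G to 94.2% in MT1A had no exact copy in another gene. For MT2A this share was 88.9%, and for MT1X it was 79.7%. When copies with up to 2 mismatches were also counted, the share without a copy was 43.5% in MT1E, 44.6% in MT2A and 55.5% in MT1X, and was highest among the 7 in MT1F at 80.3%. MT3 and MT4, which gave 0 reads, had no exact copy of any window elsewhere. At least 43.5% of the windows of each of these 7 genes could thus place a read on that gene alone, even with 2 mismatches allowed. How many metallothionein reads were lost to multiple alignment was not tested.

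**Figure D3:**
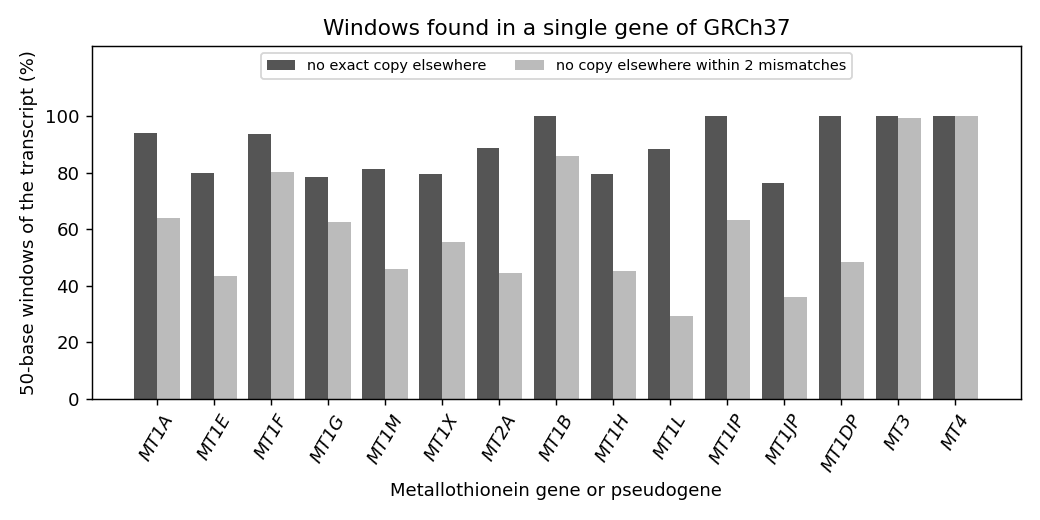
Share of the 50-base windows of each metallothionein transcript, in percent, that occur in a single gene of GRCh37, for exact copies (dark bars) and for copies with up to 2 mismatches (light bars). Most exact windows belong to 1 gene, from 76.3% in MT1JP to 100% in MT1B, MT1IP, MT1DP, MT3 and MT4.

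The metallothionein transcripts are also short, from 396 to 746 bases. Among 717 other protein-coding genes with transcripts of that length, 37.5% had 0 reads over the 4 samples, 38.1% had over 100 reads, and 42.0% had more reads than MT1X. Of all genes in the files, 20.8% had 0 reads. The 305 such genes that were tested had a median log2 fold change of 0.22, against -0.0001 for all genes tested, and the part of transcript length in this was not tested.

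SLC30A1, the zinc exporter that MTF1 is known to activate, was expressed in every sample. SLC30A1 had 465 and 363 reads with vehicle, against 581 and 704 reads with LY500307, or 15.5 and 12.8 CPM against 16.7 and 21.8 CPM. Both LY500307 samples were above both Vehicle samples, as held for 24.2% of the 14473 genes tested, and LY500307 replicate 2 was the highest. The means were 14.1 ± 1.94 CPM (SD, n = 2) with vehicle and 19.3 ± 3.56 CPM (SD, n = 2) with LY500307. The log2 fold change was 0.44 ± 0.18. The unadjusted p from edgeR, fitted across all genes, was 0.0412, as against 11.6% of all genes tested with an unadjusted p below 0.05, and the adjusted p was 0.428. Genes were called at the thresholds named in the study's methods, an unadjusted p below 0.05 with an absolute log2 fold change above 0.5, which 2.76% of the genes tested met as higher and 1.86% as lower. In numbers these were 400 higher and 269 lower genes, and with a correction for transcript length 280 higher and 294 lower. SLC30A1 fell short of the fold limit and was not called. MT1X and MTF1, the only others of the 9 genes with enough reads to be tested, were not called either. The size of the change depended on the LY500307 sample: without LY500307 replicate 2 it was 0.24 and without LY500307 replicate 1 it was 0.62, at which SLC30A1 would have been called. It would also have been called without Vehicle replicate 1, at 0.59, and it was 0.31 without Vehicle replicate 2.

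MTF1, the sensor itself, had 720 and 664 reads with vehicle and 764 and 626 reads with LY500307, or 24.0 and 23.4 CPM against 22.0 and 19.4 CPM. MTF1 was lower in each LY500307 sample than in either Vehicle sample, as for 24.4% of the genes tested, and LY500307 replicate 2 was again the farther from vehicle. The means were 23.7 ± 0.467 CPM (SD, n = 2) and 20.7 ± 1.87 CPM (SD, n = 2). The log2 fold change was -0.20 ± 0.14, the adjusted p was 0.545 with edgeR, and MTF1 was not called. Per kilobase of transcript, which allows levels of different genes to be set side by side, MTF1 stood at 2.44 to 3.03 CPM and SLC30A1 at 2.17 to 3.70 CPM over the 4 samples. On the same scale MT1X was between 0.413 and 1.31 CPM and MT2A between 0.309 and 0.582 CPM. In each sample, SLC30A1 and MTF1 were above MT1X and MT2A. MT1A was at 0.291 CPM per kilobase in LY500307 replicate 1 and MT1F at 0.0678, and both were at 0 in the other samples. SLC30A1 and MTF1 overlapped each other, as did MT1X and MT2A. In bulk RNA such as this, fewer expressing cells and less RNA per cell cannot be told apart.

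**Figure D4:**
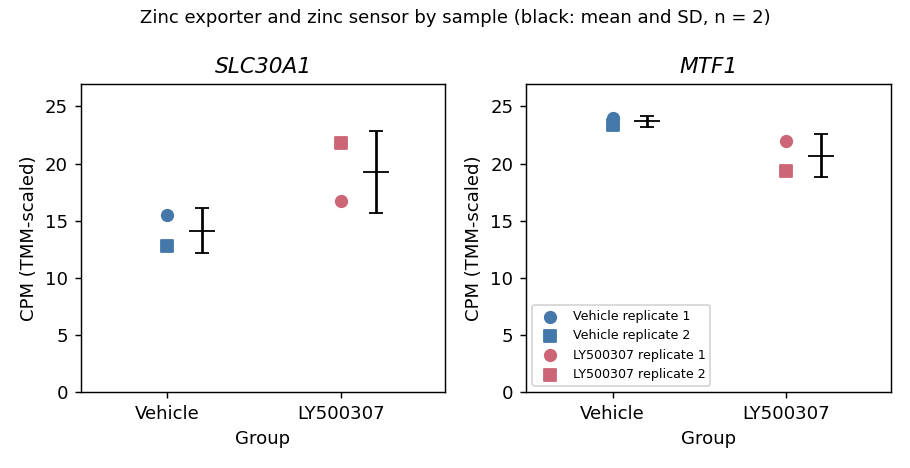
TMM-scaled CPM of SLC30A1 and MTF1 in each sample, with the mean and SD of each group (n = 2) in black. The LY500307 samples lie above the Vehicle samples for SLC30A1 (16.7 and 21.8 against 15.5 and 12.8 CPM) and below them for MTF1 (22.0 and 19.4 against 24.0 and 23.4 CPM).

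The other zinc transporters were examined as a list. Members of the SLC30 family carry zinc out of the cytosol, and members of the SLC39 family carry it in. Of 9 other SLC30 genes, 8 were tested and 0 were called, with a median log2 fold change of -0.02. Of all genes tested, 2.76% were called higher and 1.86% lower, so 0 calls in a list this short says little. The most highly counted were SLC30A9, with 143 ± 6.13 CPM (SD, n = 2) with vehicle and 141 ± 13.3 CPM (SD, n = 2) with LY500307, and SLC30A5, a transporter of the secretory pathway, with 86.1 ± 3.99 CPM (SD, n = 2) and 89.8 ± 8.10 CPM (SD, n = 2). Of 14 SLC39 genes, 11 were tested and 0 were called, beside the same 2.76% and 1.86%, with a median log2 fold change of 0.11. SLC39A7, which releases zinc from the endoplasmic reticulum, had the highest counts, at 265 and 256 CPM with vehicle and 294 and 289 CPM with LY500307, and the log2 fold change was 0.16 ± 0.10. SLC39A1, an importer of the plasma membrane, stood at 226 and 213 CPM with vehicle and 223 and 196 CPM with LY500307, which overlapped. Of the 11 SLC39 genes, 3 were higher and 2 were lower in both LY500307 samples than in both Vehicle samples, beside 24.2% and 24.4% of all genes tested. The counts of the 23 other transporters ranged widely: 4 of them (SLC30A2, SLC39A2, SLC39A5 and SLC39A12, named after their values were seen) were too low to be tested, with at most 7 reads in any sample.

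**Figure D5:**
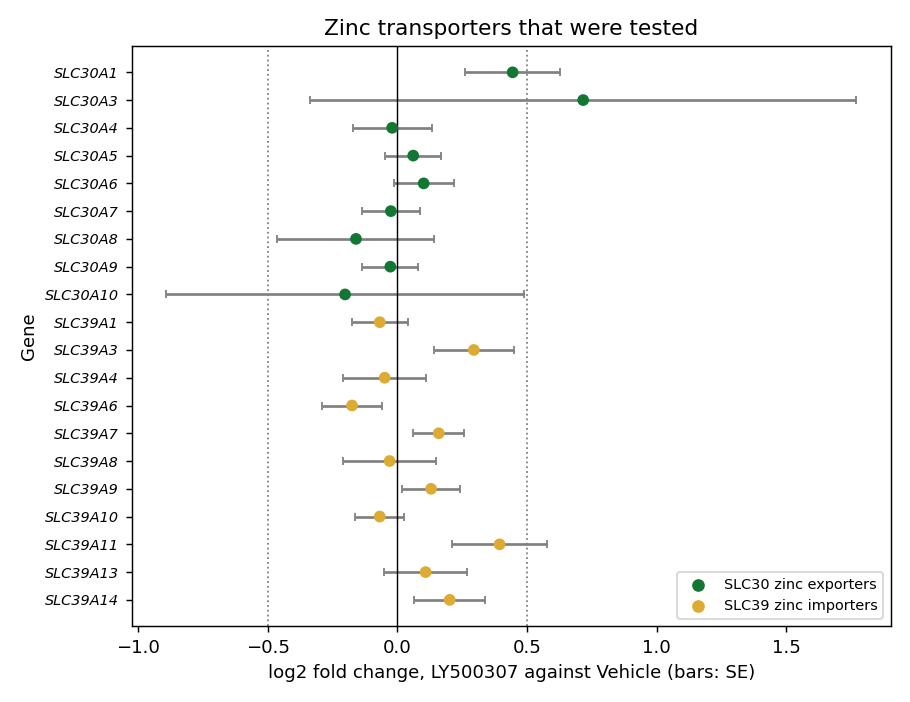
Log2 fold change of LY500307 against Vehicle, with standard errors as bars, for the zinc exporters (green, SLC30A1 included) and importers (yellow) that were tested, with dotted lines at the limits of 0.5. SLC30A1 has a log2 fold change of 0.44, and SLC30A3, the point beyond 0.5, rests on 0 to 15 reads per sample.

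Metallothioneins also bind copper, and 1 of 9 copper-handling genes was called, as higher, beside 2.76% of all genes tested. ATOX1, the copper chaperone that passes copper to the ATP7 pumps, had 12.6 and 13.9 CPM with vehicle and 16.4 and 26.7 CPM with LY500307. The LY500307 samples were above the Vehicle samples and differed widely from each other. The fitted log2 fold change was 0.70 ± 0.23 (adjusted p = 0.422 with edgeR). It was 0.30 without LY500307 replicate 2, 1.01 without LY500307 replicate 1 and 0.49 with a correction for transcript length, so that the call was lost without LY500307 replicate 2 and with this correction. The 2 genes of this list with the highest counts were not called: SOD1, the copper and zinc superoxide dismutase, stood at -0.21 ± 0.15 on the log2 scale, and SLC31A1, the main copper importer, at 0.11 ± 0.14. The median of the list was 0.11.

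Among 13 genes known to respond to heavy metals or to oxidative stress, 2 were called, both higher with LY500307, beside 2.76% of all genes tested called higher and 1.86% called lower. The median log2 fold change was 0.06. Without overlap, 7 genes were higher and 4 lower, beside 24.2% and 24.4% of all genes tested. An unadjusted p below 0.05 with edgeR was reached by 4 of the 13 genes, beside 11.6% of all genes tested. These were the 2 called and, named after their values were seen, SRXN1 at 0.41 ± 0.12 and DNAJB1 at 0.25 ± 0.10, which missed the fold limit. HMOX1, heme oxygenase, had 34.7 and 33.9 CPM with vehicle and 44.9 and 61.4 CPM with LY500307. For HMOX1 the log2 fold change was 0.63 ± 0.16 (adjusted p = 0.422 with edgeR), 0.39 without LY500307 replicate 2 and 0.84 without LY500307 replicate 1. HSPA1B, an inducible heat shock protein, had 29.7 and 27.2 CPM with vehicle and 37.6 and 48.1 CPM with LY500307, and its fitted log2 fold change was 0.59 ± 0.15 (adjusted p = 0.422 with edgeR). Without LY500307 replicate 2 the log2 fold change of HSPA1B was 0.41, and as for HMOX1 the call was lost at the fold limit. HSPA1B shares reads with its near-identical copy HSPA1A, so its count is uncertain. In both genes the groups did not overlap, and LY500307 replicate 2 was the highest sample. HSPH1 and TXNRD1, the most highly counted of the list, had log2 fold changes of -0.14 ± 0.11 and -0.05 ± 0.10 and were not called. No metallothionein had more than 16 reads in any of these samples, and a link between them and HMOX1 or HSPA1B was not tested.

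Of 9 glucocorticoid-responsive genes, 8 were tested, 0 were called, and the median log2 fold change was 0.08. Of all genes tested, 2.76% were called higher and 1.86% lower, so 0 calls in a list this short says little. FKBP5, a chaperone that glucocorticoids induce, was among the well counted genes, with 402 and 421 CPM with vehicle and 390 and 308 CPM with LY500307. PER1, a circadian clock gene with glucocorticoid response elements, had 128 and 127 CPM with vehicle and 120 and 119 CPM with LY500307. Both genes were lower in both LY500307 samples, and neither was called. Of the 8 genes tested, 3 were lower and 3 were higher without overlap (24.4% and 24.2% of all genes tested). The higher ones, named after their values were seen, were TSC22D3 at a log2 fold change of 0.39 ± 0.22, KLF9 at 0.35 ± 0.18 and CEBPD at 0.27 ± 0.14. Of 6 factors known to act at metallothionein promoters, 0 were called, beside the same 2.76% and 1.86% of all genes tested. EP300, a histone acetyltransferase, stood at 485 ± 9.97 CPM (SD, n = 2) with vehicle and 448 ± 65.6 CPM (SD, n = 2) with LY500307, and SP1, which binds GC boxes, at 373 and 385 CPM with vehicle and 352 and 286 CPM with LY500307. NR3C1, the glucocorticoid receptor, was low, with 44 to 71 reads per sample or 1.55 to 2.05 CPM. It was named after its values were seen.

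The genes on either side of the metallothionein cluster were expressed. On the MT4 side, NUDT21, a subunit of a cleavage factor for mRNA ends, had 320 ± 5.49 CPM (SD, n = 2) with vehicle, OGFOD1 had 103 ± 3.93 CPM (SD, n = 2), and BBS2, of the ciliary BBSome, had 45.6 ± 6.96 CPM (SD, n = 2). On the MT1X side, NUP93, a nuclear pore protein, had 95.4 ± 8.87 CPM (SD, n = 2) with vehicle and HERPUD1, a stress protein of the endoplasmic reticulum, had 36.0 ± 0.456 CPM (SD, n = 2). The remaining neighbours on that side, the tissue-specific genes SLC12A3 and CETP, had at most 1 and 5 reads in any sample. Of the neighbours tested, 0 were called, beside 2.76% of all genes tested called higher and 1.86% called lower. NUDT21 had the lowest p of the neighbours, with 316 and 324 CPM with vehicle and 281 and 245 CPM with LY500307, which gave a log2 fold change of -0.28 ± 0.11 and an adjusted p of 0.428 with edgeR. In the GENCODE annotation, the end of NUDT21 overlaps the start of OGFOD1, and the span of BBS2 overlaps MT4. How reads in these shared stretches were assigned depends on the strand setting and annotation of the counting, which are not known. The near-silent metallothionein rows were thus flanked within the same stretch of chromosome 16 by 5 genes with at least 36.0 CPM with vehicle.

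The labelled cell type was checked against its markers. Of 8 epithelial and ovarian carcinoma markers, 3 (KRT18, EPCAM and ERBB2) were at 1 CPM or more in every sample, while PAX8 had 0 reads in all samples, and KRT19, CDH1 and MUC16 were at or near 0. KRT8 was between 0.317 and 1.02 CPM. Only these 3 of the 8 markers thus met this low limit, with ERBB2 at 48.7 to 59.4 CPM over the 4 samples. As a set, the 8 markers did not bear out the label. The summed level of the 8 was 284 to 294 CPM with vehicle and 283 to 330 CPM with LY500307. Most of this sum was EPCAM alone, at 194 to 240 CPM over the 4 samples. The mesenchymal markers VIM and FN1 summed to 1181 to 1187 CPM with vehicle and 1324 to 1385 CPM with LY500307. Of 8 markers of other cell types, CD68, COL1A1 and DCN were at 1 CPM or more, and the leukocyte markers PTPRC and CD3E were at or near 0. The list summed to 204 to 214 CPM with vehicle and 248 to 251 CPM with LY500307. Most of that sum was COL1A1 alone, at 182 to 230 CPM over the 4 samples, which overlapped the range of EPCAM. ALDH1A1 and ALDH1A2 were expressed, at 4.71 to 11.3 CPM, and ALDH1A3 was below 1 CPM. The part of these differences in the values above was not tested.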

How the data were processed

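The labels describe RNA of SKOV3 OCSCs sequenced from total RNA libraries as 50-base single ends, while the paper's methods name stranded mRNA libraries. The submitters' processing notes name bcl2fastq, TopHat2 2.0.8b, HTSeq and the build hg19. The authors deposited raw read counts per gene. The strand setting, HTSeq version and gene annotation are not given in the sources used here. The 5 tally lines were left out of library sizes. Among reads aligned to a single place, the share on no gene was 25.5% in LY500307 replicate 2 and 28.4% to 30.8% in the other samples. The TMM factor was 1.034 in LY500307 replicate 2 and 0.986 to 0.994 in the other samples. The part of this library difference in the values above was not tested.

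Counts of all 4 samples were fitted in R 4.3.3 with edgeR 4.0.16 (filterByExpr, TMM, quasi-likelihood test), with the group as the only term. The standard error is the absolute log2 fold change divided by the square root of F. CPM uses TMM-scaled library sizes. DESeq2 1.42.0, which the study used, was an alternative. Other alternatives were its size factors, library totals, other filters, a replicate block, a loess correction (span 0.3) for transcript length and leaving out each sample. Lengths of canonical transcripts came from the GENCODE annotation on GRCh37, for 85.0% of the 23228 symbols, 2161 of them by an older symbol from RefSeq. Replicate numbers come from the labels. The deviations of same-numbered samples correlated at -0.0701 over 14473 genes. This rests on a single difference between replicates in each group, so it cannot settle whether same-numbered samples were paired. No source used here says so.

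The 50-base windows were compared with loci found by BLAST+ 2.17.0. The edgeR fit was tested on simulated data and the motif search on a made-up sequence. The named genes are the 9 genes, the metallothionein rows, the chromosome 16 neighbours (1 of which is not reported here), and in each other list the called genes and the 2 with the highest CPM, with further genes named after their values were seen. These genes and lists were chosen with earlier results of these data known.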

Additional observations from a re-analysis of the deposited data

How the results depend on the processing

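The number of genes called was 669, and it lay within 1.5 times of this in the 8 alternatives that used all 4 samples, at 717 under the replicate block and 619 when length was also corrected. With each sample left out in turn it ranged from 352, when LY500307 replicate 2 was dropped, to 1987, when LY500307 replicate 1 was dropped. At an adjusted p below 0.05, edgeR gave 0 genes and DESeq2 16. With edgeR it was 1 under the replicate block, 590 without LY500307 replicate 2, 5002 without LY500307 replicate 1 and 0 without either Vehicle sample, and 1678 genes had an unadjusted p below 0.05 with all samples.

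MTF1 kept its direction and was not called in all 12 alternatives, with a log2 fold change of -0.29 to -0.10 when samples were left out. SLC30A1 was higher with LY500307 in all 12. With all samples it was called in none of them, at 0.44 with the replicate block, 0.45 with DESeq2 (adjusted p = 0.416) and 0.49 with library totals alone. With samples left out it ranged from 0.24 to 0.62, and was called without Vehicle replicate 1 and without LY500307 replicate 1. MT1X ranged from -0.88 to 0.95 and turned positive without Vehicle replicate 2 (0.95) and without LY500307 replicate 2 (0.41). It was not tested with the filter of 1 CPM in 2 samples. With all genes of at least 1 count tested, MT2A stood at -0.20 ± 1.05 on the log2 scale. The replicate block alone changed no call of MT1X, MTF1, SLC30A1, ATOX1, HMOX1 or HSPA1B, and with the length correction ATOX1 was at 0.47. The fits with a sample left out assume that the lone sample of its group varies like those of the other group. The difference in summed metallothionein CPM, LY500307 minus Vehicle, was 0.0204. It was 0.021 and 0.0305 with other scalings and ranged from -0.2427 (LY500307 replicate 1 left out) to 0.2835 (LY500307 replicate 2 left out), and was also negative, at -0.131, when Vehicle replicate 1 was left out, against a pooled SD of 0.304 CPM. At 4 to 16 reads per sample, depth limits every statement on MT1X and MT2A.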

Other observations

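MT1X had the highest mean CPM of the metallothioneins, and the genes tested were ranked by how close their pattern over the 4 samples was to it, as the distance between log2 CPM values centred on each gene's mean. The nearest were C1orf114 (30, 74, 76 and 35 reads in Vehicle replicates 1 and 2 and LY500307 replicates 1 and 2, distance 0.0830), GRM5 (9, 23, 24 and 11 reads, 0.139), FAM92A3 (8, 19, 22 and 8 reads, 0.170), C14orf182 (15, 34, 37 and 17 reads, 0.172) and SSC5D (23, 51, 52 and 25 reads, 0.207). As their choice by closeness to MT1X requires, each was high in Vehicle replicate 2 and LY500307 replicate 1 and low in the other samples. The pattern of MT1X rests on 5 to 16 reads per sample, and the ranking is a description over 4 samples with no test.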
